A study of Homo sapiens with 2 samples.

Results

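The genes described here are 48 genes of the NF-kB pathway and of the chemokines and cytokines it is known to induce. They were chosen by name as 25 secreted products, 21 receptors and signalling components and 2 other induced cell proteins. The choice was made with earlier results of these data known, so shares set beside those of all genes below only describe this list. A probe set that the platform annotation assigned to a single gene existed for 45 of them, out of 19775 genes on the array. CSF2, BIRC3 and BCL3 had none and are not analysed here. The 45 genes had 90 probe sets in all, and for each gene the one with the highest mean of both arrays was used as its main probe set. The cells were QGP1, an established line derived from a human pancreatic neuroendocrine tumour. RNA from cells taken by fluorescence-activated cell sorting for high aldehyde dehydrogenase (ALDH) activity, a property used to enrich for tumour cells with stem-like traits, was hybridised to 1 array, and RNA from control cells of the line to another. The labels record no drug or genetic change in either group, and do not say whether the control cells also went through the sorter. All values below are log2 levels made with RMA, so a difference of 1 is a 2-fold difference. With 1 array per group, no difference has a replicate check and none was tested.

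NF-kB is a family of dimeric transcription factors held in the cytoplasm by IkB inhibitors. Receptors for interleukin-1, tumour necrosis factor and microbial products act through adaptors and kinases that lead to the breakdown of IkB, after which the dimers enter the nucleus. There they induce neutrophil-attracting chemokines, cytokines and adhesion molecules, together with their own inhibitors, NFKBIA and TNFAIP3. Much of this control acts on the location of the proteins and not on the amount of their mRNA.

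The best-known targets carry kB elements just before their start sites, and these sequences are shown because the genes behind them make up most of the bright chemokines described below. Upstream sequence came from RefSeq (GRCh38.p14), where 41 of the 48 genes were matched by symbol. Each line gives the 110 bases before the annotated start, 5′ to 3′ on the gene's strand. The windows lie at chr4:73869283-73869392 (plus strand) for CXCL1, chr4:74099196-74099305 (minus) for CXCL2, chr4:74038690-74038799 (minus) for CXCL3 and chr4:73740459-73740568 (plus) for CXCL8. Those of CCL20, NFKB1 and NFKBIA lie at chr2:227813732-227813841 (plus), chr4:102501249-102501358 (plus) and chr14:35404750-35404859 (minus). Capitals mark GGAATTTCC on either strand, except in CCL20, where they mark a match on the opposite strand to the NF-kB consensus decamer.
CXCL1: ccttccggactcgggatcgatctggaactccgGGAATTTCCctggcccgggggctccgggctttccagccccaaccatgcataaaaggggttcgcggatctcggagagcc
CXCL2: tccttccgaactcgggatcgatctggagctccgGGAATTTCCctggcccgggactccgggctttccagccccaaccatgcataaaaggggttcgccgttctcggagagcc
CXCL3: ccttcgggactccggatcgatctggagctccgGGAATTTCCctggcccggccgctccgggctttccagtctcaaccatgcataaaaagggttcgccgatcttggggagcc
CXCL8: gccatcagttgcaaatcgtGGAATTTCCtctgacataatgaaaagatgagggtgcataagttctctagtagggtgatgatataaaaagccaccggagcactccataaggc
CCL20: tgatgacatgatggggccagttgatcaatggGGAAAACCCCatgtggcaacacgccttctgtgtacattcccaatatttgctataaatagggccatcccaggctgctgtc
NFKB1: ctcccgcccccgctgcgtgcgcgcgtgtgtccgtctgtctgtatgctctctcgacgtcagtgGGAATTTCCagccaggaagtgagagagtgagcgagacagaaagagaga
NFKBIA: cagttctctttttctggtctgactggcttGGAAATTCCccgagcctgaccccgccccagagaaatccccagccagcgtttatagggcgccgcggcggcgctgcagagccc

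Aligned end to end, the windows of CXCL1 and CXCL2 were 93.7% identical, those of CXCL1 and CXCL3 90.0% and those of CXCL2 and CXCL3 88.3%, while CXCL8 matched each of the 3 at 44.4% to 45.3%. The capitals start 77 bases before the start site in CXCL2, 78 in CXCL1 and CXCL3 and 91 in CXCL8.

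The ALDH-high cells had lower levels of a limited set of these genes, among them 5 chemokines and 3 receptors. Of the 13 measured adaptors, kinases, ligases, Rel subunits and inhibitors, a grouping made after the values were seen, 0 were over 1.5-fold different. That count is near the share over all genes, of which 4.21% were lower and 2.61% higher by that much. Over 2-fold lower were IL1R1, CXCL2 and CD14, and over 2-fold higher was IL18 alone. These are 6.67% and 2.22% of the 45 genes, where 1.23% of all 19775 genes were over 2-fold lower and 0.465% over 2-fold higher. A further 7 genes, CXCL8, CCL20, LIF, IL6R, CXCL3, IL33 and CXCL1, were between 1.5-fold and 2-fold lower, and no gene was between 1.5-fold and 2-fold higher. At over 1.5-fold, 10 of 45 genes (22.2%) were thus lower, beside 4.21% of all genes, and 1 of 45 (2.22%) was higher, beside 2.61%. In all, 32 of the 45 lay below 0 (71.1%, against 50.3% of all genes), 12 lay above 0 and CCL2 was equal on both arrays. The median over the 45 genes was -0.17, a 1.12-fold lower level, and that of all genes was -0.01. The median of the 45 was -0.07 with the mean of each gene's probe sets, -0.09 with their median and -0.08 with a pseudocount of 32 added on the linear scale, which damps dim genes.

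**Figure D1:**
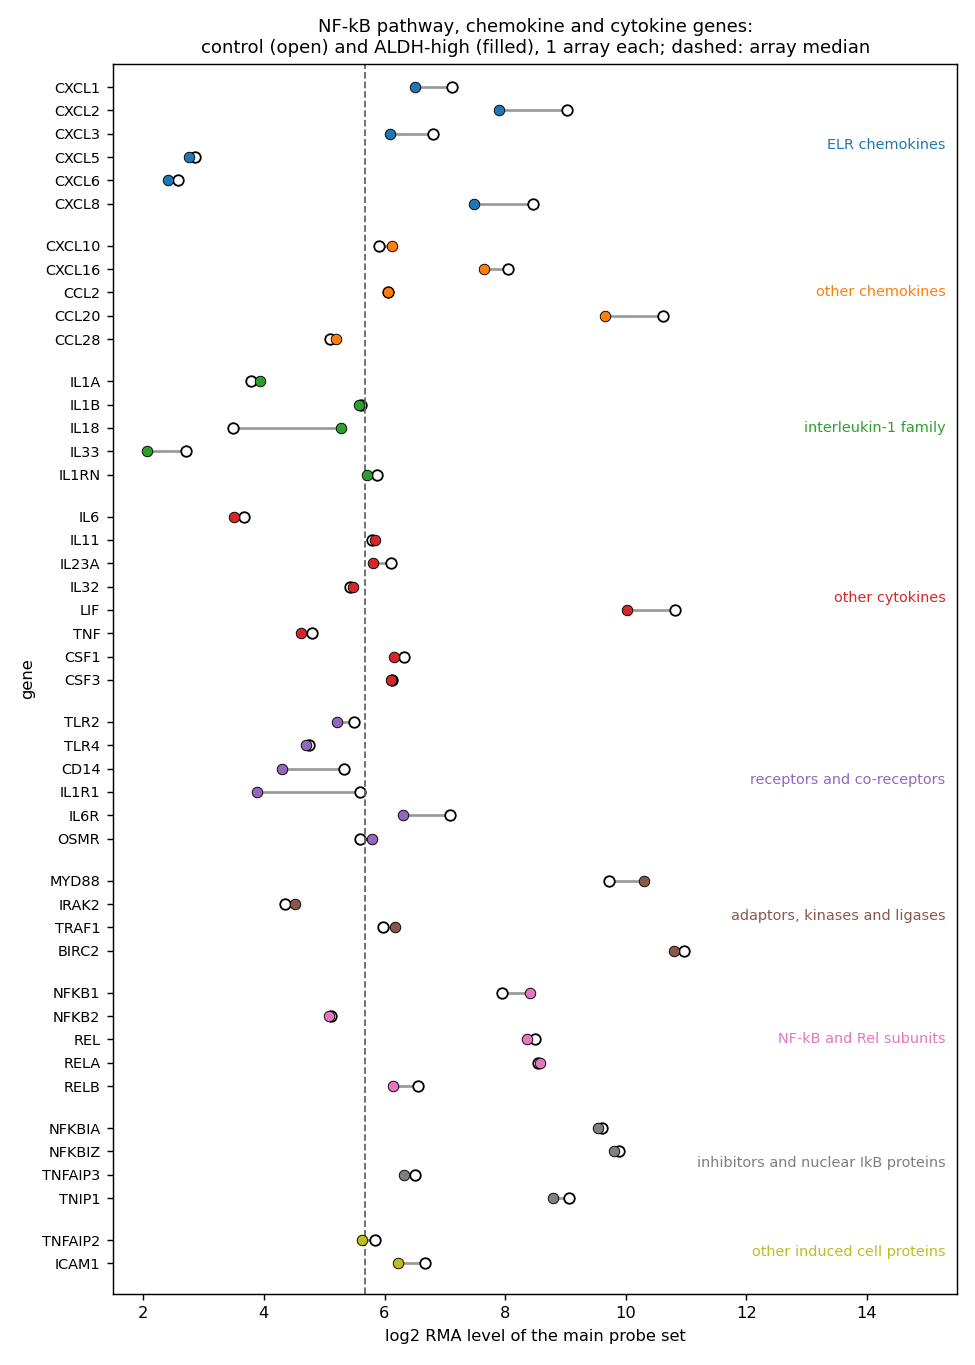
Log2 RMA level of the main probe set (horizontal axis) of 45 genes, listed by role, on the control array (open circles) and the ALDH-high array (filled circles), with 1 array per group and the array median of 5.68 as a dashed line. The widest gaps are those of IL18 (3.48 in control, 5.28 in ALDH high), IL1R1 (5.60 and 3.89) and CXCL2 (9.03 and 7.89).

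Many of these genes were dim, among them IL18, IL1R1 and CD14, which were over 2-fold different. Near the floor of the array a lower level can hardly appear. The array medians were 5.69 for control and 5.68 for ALDH high, and 29 of the 45 genes reached the median level of 5.68 on at least 1 array. Among these 29, 7 were over 1.5-fold lower (24.1%, where 5.68% of 12820 genes at such levels were) and 0 were over 1.5-fold higher (where 3.6% were), and 21 of the 29 lay below 0 (50.6% of such genes did). The probe sets of one gene gave differences with a pooled SD of 0.23 over 10523 genes with several, which serves below as a yardstick for the measurement and leaves out the spread between cultures or sorts. Labelling controls added as poly-A RNA read 0.32 higher on the ALDH-high array (SD 0.07 over 24 probe sets), against 0.05 (SD 0.04 over 18 probe sets) for controls added at hybridisation. Their part in the differences was not tested. ALDH1A3 was 3.42-fold higher in the ALDH-high cells (7.99 against 6.21), and ALDH1A1, the brighter of these 2 genes, 1.28-fold lower (11.78 against 12.13). The sort was on enzyme activity, so these 2 mRNA levels, which differ in opposite directions, do not check the label. All 11 measured neuroendocrine markers of 13, such as chromogranin CHGA (11.50 in ALDH high, 11.70 in control), were at or above the median level.

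**Figure D2:**
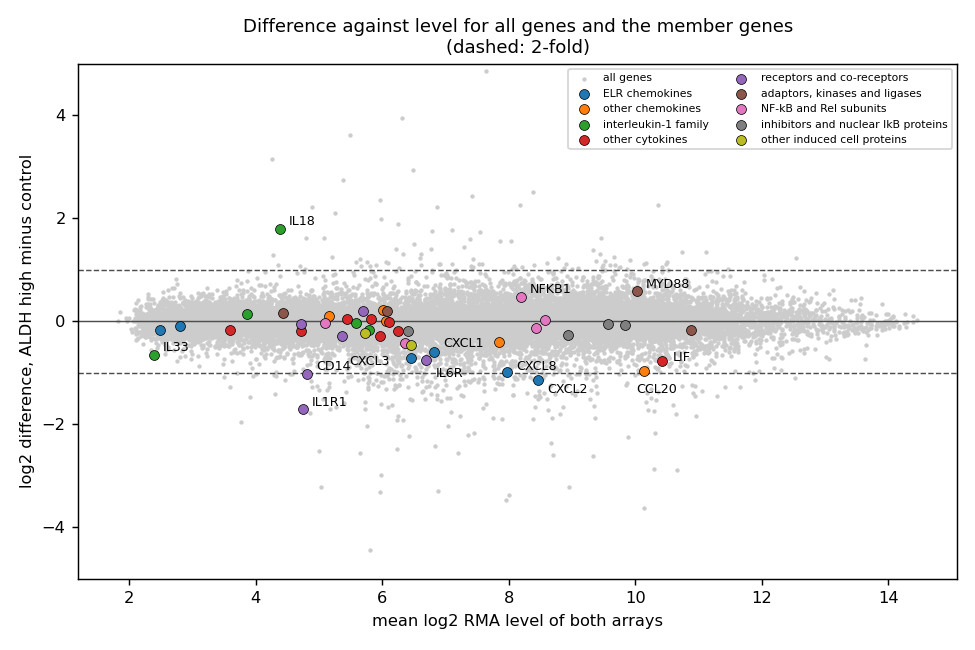
Difference in log2 level, ALDH high minus control (vertical axis), against the mean level of both arrays (horizontal axis) for all 19775 genes (grey) and the 45 genes by role (colours), with 2-fold as dashed lines. CXCL2, CXCL8, CCL20 and LIF lie below the grey centre at high levels, whereas IL18, IL1R1 and CD14 are dim.

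The chemokines with a glutamate-leucine-arginine (ELR) motif, which attract neutrophils through CXCR1 and CXCR2, were lower in the ALDH-high cells wherever they were bright. Their 6 start sites lie within 359 kb of chromosome 4. All 6 genes lay below 0 (50.3% of all genes did), and their median of -0.66 is a 1.58-fold lower level. CXCL2 read 9.03 in control and 7.89 in ALDH high, 2.21-fold lower. CXCL8, which encodes interleukin-8, read 8.46 and 7.48, 1.97-fold lower, and its second probe set read 7.10 and 6.33, a difference of -0.77. CXCL3 read 6.80 and 6.09, 1.64-fold lower. CXCL1, a growth-regulated chemokine like CXCL2 and CXCL3, read 7.12 and 6.51, 1.52-fold lower. These 4 genes were each over 1.5-fold lower on the main probe set and at or above the median level. Of all genes at such levels, 5.68% were over 1.5-fold lower. With the pseudocount, CXCL1 (-0.47) and CXCL3 (-0.52) were under 1.5-fold, and CXCL1 was so with loess centring too (-0.57). CXCL5 (2.85 and 2.76) and CXCL6 (2.57 and 2.41) stood no higher than the 7.30th percentile of either array, where a difference could hardly appear.

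The CXCL2 value rests on a probe set of the _x_at type, whose probes are known to match several transcripts. Both other CXCL2 probe sets were dim (3.71 in control and 3.89 in ALDH high, 3.83 and 3.51), with differences of 0.18 and -0.32, and the mean over all 3 was -0.43. Without probe sets of shared-target types (IDs ending in _s_at, _x_at or _a_at), CXCL2 is left with the value of 0.18, and CXCL8 with none. CXCL1, CXCL2 and CXCL3 are close paralogs, so their probe sets may pick up one another's transcripts, and their 3 differences may not be separate observations. How far this applies was not tested. The probe sets of CXCL1 and CXCL3 are not of a shared-target type.

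Among the other chemokines, CCL20 was the one with a lower level beyond 1.5-fold. CCL20, which attracts cells bearing CCR6, read 10.62 in control and 9.65 in ALDH high, 1.96-fold lower on its single probe set and just short of the 2-fold threshold. It was bright on both arrays, at the 90.1th percentile of the ALDH-high array. CXCL16, a membrane-anchored chemokine that binds CXCR6, read 8.05 and 7.65, 1.32-fold lower. CXCL10, an interferon-inducible chemokine, read 5.91 and 6.12, 1.15-fold higher. CCL2, the monocyte attractant, read 6.05 on both arrays, and the mucosal chemokine CCL28 read 5.10 and 5.20. For these last 3 genes the differences were within the 0.23 between probe sets.

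In the interleukin-1 family, IL18 was higher in the ALDH-high cells and no other gene was over 1.5-fold higher. IL18, a cytokine stored as a precursor in epithelial cells and released after cleavage by caspase-1, read 3.48 in control and 5.28 in ALDH high, 3.48-fold higher. Its difference of 1.80 was the 17th highest of 19775 genes. Both levels were below the array median, at the 15.1th and 42.9th percentiles, and IL18 had 1 probe set. With the pseudocount the difference was 0.72 and under 2-fold. IL1A read 3.79 in control and 3.94 in ALDH high, and IL1B, the inducible agonist, 5.61 and 5.57. IL33, an alarmin kept in the nucleus, read 2.71 and 2.06, 1.57-fold lower, but the ALDH-high level was at the 0.232th percentile of its array, and with the pseudocount the difference was -0.09. IL1RN, the secreted antagonist of the interleukin-1 receptor, read 5.87 and 5.71, and its 5 probe sets ranged from -0.17 to 0.14.

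The remaining cytokines differed little, with LIF as the exception. LIF, a cytokine of the interleukin-6 family that signals through LIFR and IL6ST, read 10.81 in control and 10.02 in ALDH high, 1.72-fold lower. It was bright on both arrays, at the 95.7th and 92.3th percentiles. Of the 8 measured genes in this group, 6 lay below 0 (75%, against 50.3% of all genes) and the median was -0.17. IL6 (3.67 and 3.50) and TNF (4.80 and 4.62), the cytokines most often read as signs of NF-kB activity, were dim on both arrays with differences of -0.17 and -0.18. IL23A, a subunit of interleukin-23, read 6.10 and 5.81, a difference of -0.29, and its 4 probe sets ranged from -0.29 to 0.22. CSF1, the macrophage growth factor, read 6.33 and 6.15, and CSF3, the granulocyte growth factor, 6.12 and 6.10. IL11 (5.79 and 5.84) and IL32 (5.42 and 5.47) each differed by 0.05.

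The receptors and co-receptors had lower levels in the ALDH-high cells for 5 of 6 genes, where 50.3% of all genes lay below 0. The median of the 6 was -0.53, a 1.44-fold lower level. IL1R1, the signalling receptor for interleukin-1, read 5.60 in control and 3.89 in ALDH high, 3.27-fold lower, and its difference was the 45th lowest of all genes. CD14, which hands lipopolysaccharide to the TLR4 complex, read 5.32 and 4.30, 2.03-fold lower. IL6R, the ligand-binding chain for interleukin-6, read 7.08 and 6.31, 1.70-fold lower. The first and second of these were dim: both stood below the array median on both arrays, and with the pseudocount their differences were -0.78 and -0.48. The second IL1R1 probe set was also dim and read 3.51 and 3.65, so the mean of both was -0.78. CD14 differed by -0.99 after loess centring of the arrays, just under 2-fold. For IL6R the other probe sets differed by -0.20 and -0.05, and the mean over its 3 was -0.34. TLR2, a receptor for bacterial lipoproteins, read 5.50 and 5.21, TLR4 4.74 and 4.69, and OSMR, the oncostatin M receptor, 5.60 and 5.79. All 4 probe sets of TLR4 lay below 0, from -0.33 to -0.05, at dim levels.

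The 13 measured adaptors, kinases, ligases, Rel subunits and inhibitors had a median of -0.06. Of them, 8 lay below 0 (61.5%, against 50.3% of all genes) and 5 above. Of these 13, 0 were over 1.5-fold different, where 4.21% of all genes were lower and 2.61% higher by that much, so a count of 0 is near the share over all genes. This grouping leaves out the receptors and was made after the values were seen.

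MYD88, the adaptor shared by the interleukin-1 receptor and most Toll-like receptors, had the largest positive difference of these 13 genes. It read 9.73 in control and 10.31 in ALDH high, a difference of 0.58 that lay just under the 1.5-fold limit, or just over it (0.59) after median centring of the arrays. TRAF1, an adaptor of tumour necrosis factor receptors, read 5.98 and 6.17, and IRAK2, a kinase downstream of MYD88, 4.35 and 4.52. BIRC2, a ubiquitin ligase of the tumour necrosis factor receptor complex, read 10.97 and 10.80. The median over these 4 genes was 0.18. MYD88 thus lay above 0 at a bright level, and IL1R1, a receptor it serves, below 0 at a dim one.

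Among the subunits, NFKB1, the precursor of p50, read 7.95 in control and 8.42 in ALDH high, 1.39-fold higher. RELB, a subunit of the alternative pathway and itself an NF-kB target, read 6.56 and 6.14, 1.35-fold lower. Both differences exceeded the pooled SD of 0.23 between probe sets of one gene, though each gene had 1 probe set. The 5th to 95th percentile of all genes spans -0.53 to 0.45, so RELB lay within that range and NFKB1 just outside it. RELA, the main transactivating subunit, read 8.55 and 8.58, with a second probe set at 0.21. REL read 8.50 and 8.37, with its 5 probe sets from -0.15 to 0.21, and NFKB2, the precursor of p52, 5.11 and 5.08.

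The inhibitors differed little between the arrays. NFKBIA, the IkB-alpha protein that NF-kB induces to shut itself off, read 9.60 in control and 9.54 in ALDH high. NFKBIZ, a nuclear IkB protein that promotes a subset of targets, read 9.88 and 9.80, and its second probe set differed by -0.07. TNFAIP3, the ubiquitin-editing enzyme A20, read 6.50 and 6.32, and TNIP1, which binds TNFAIP3, 9.06 and 8.80. All 4 lay below 0, where 50.3% of all genes did. Their median was -0.13 and the lowest -0.26, so the 4 lay within or near the spread between probe sets. Both other induced cell proteins lay below 0. ICAM1, an adhesion molecule for leukocytes, read 6.67 and 6.22, 1.37-fold lower, and its other probe sets differed by -0.25 and -0.55. TNFAIP2, a protein first found as induced by tumour necrosis factor, read 5.84 and 5.62, a difference of -0.22, with its second probe set at 0.09.

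**Figure D3:**
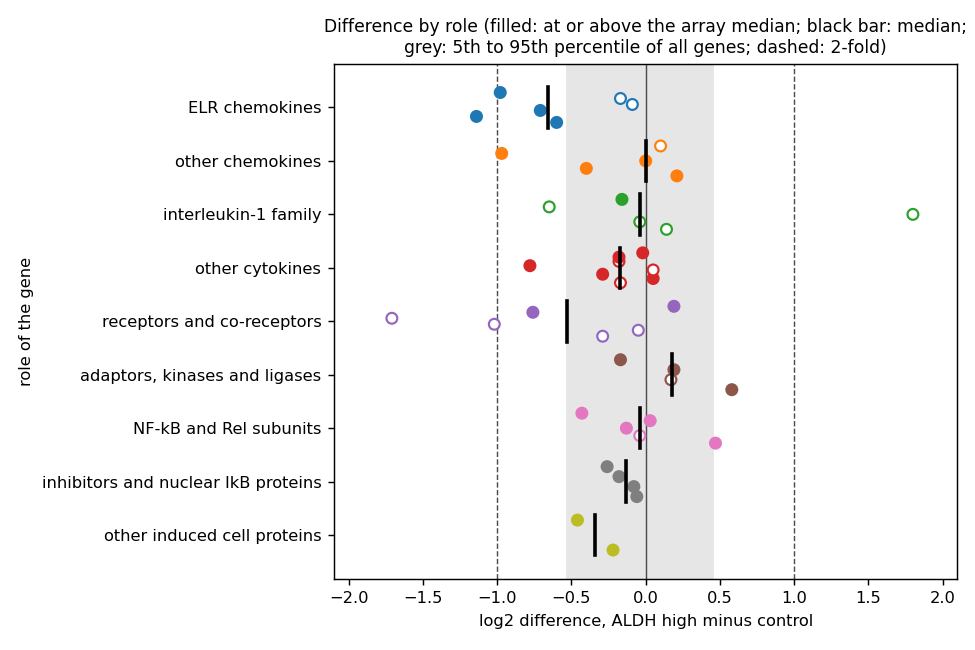
Difference in log2 level, ALDH high minus control (horizontal axis), of 45 genes by role (rows). Filled points are at or above the array median, black bars are the median of each role, the grey band spans the 5th to 95th percentile of all genes (-0.53 to 0.45) and dashed lines mark 2-fold. The 4 bright ELR chemokines lie between -1.14 and -0.60, the 4 inhibitors between -0.26 and -0.06.

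The 24 measured secreted genes had a median of -0.17 and the 19 components one of -0.08, a gap of -0.08 after rounding, and with the pseudocount the gap was 0.02. Of the secreted genes 7 of 24 (29.2%) were over 1.5-fold lower, and of the components 3 of 19 (15.8%), all 3 of them receptors. At over 2-fold lower the order was the other way, with 1 of 24 secreted genes and 2 of 19 components. That order rests on CXCL2, IL1R1 and CD14 alone. With the mean of probe sets, CXCL2 (-0.43) and IL1R1 (-0.78) were under 2-fold, and CD14 was so with loess centring (-0.99). Of all genes, 4.21% were over 1.5-fold lower and 1.23% over 2-fold lower. Among genes at or above the median level the counts at 1.5-fold were 6 of 14 (42.9%) and 1 of 13 (7.69%), beside 5.68% of all genes at such levels. The medians there were -0.34 and -0.08, a gap of -0.26. The ELR chemokines held 4 of the 7 lower secreted genes. Without them, 3 of 18 secreted genes (16.7%) were over 1.5-fold lower, with a median of -0.10. Genes are not replicates, and these counts describe the pair of arrays.

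Among the chosen genes, those with and without the kB sequence shown above had like medians. GGAATTTCC was searched on both strands in the 250 bases before each start, and was found in 145 of 35116 RefSeq promoters (0.413%). It was found in 12 of the 38 genes that had both a promoter in the table and a level: CXCL1, CXCL2, CXCL3, CXCL5, CXCL6, CXCL8, CXCL10, NFKB1, REL, NFKBIA, NFKBIZ and ICAM1. Their differences ran from -1.14 (CXCL2) to 0.47 (NFKB1), with 10 of 12 below 0 (50.3% of all genes were) and a median of -0.15. The 26 genes without it had a median of -0.16. The NF-kB consensus decamer, which overlaps GGAATTTCC wherever a G precedes it or a C follows it, was found in 1828 promoters (5.21%) and in 17 of the 38 genes, with a median of -0.17 against -0.16 for the 21 without it. Across the array, 78 of 15384 genes with a promoter and a level (0.507%) had GGAATTTCC, the 12 chosen genes among them. The median of the 78 was -0.08, against 0.0 for genes without the sequence. The decamer was found in 1170 genes (7.61%), the 17 chosen genes among them. Their median was -0.04, against 0.0 for genes without the decamer. A match is a run of letters and not a measured binding site. No match was found in the windows of IL1R1 or CD14.

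Of 46 further NF-kB signalling genes, 42 were measured, and 2 of them were over 2-fold lower and 0 over 2-fold higher, 4.76% and 0% beside 1.23% and 0.465% of all genes. Both were bright. LY96, also called MD-2, the lipopolysaccharide-binding partner of TLR4, read 9.70 in control and 7.90 in ALDH high, 3.48-fold lower on 1 probe set and 39th lowest of all genes. RBCK1, also called HOIL-1, a subunit of the linear ubiquitin ligase complex, read 11.08 and 9.56, 2.87-fold lower, with its other probe sets at -0.80 and -0.35. The other subunits of that ligase, RNF31 (6.15 and 5.96) and SHARPIN (7.22 and 7.31), differed by -0.19 and 0.09. TAB3, an adaptor of the kinase MAP3K7, and the deubiquitinase CYLD each differed by -0.59, just over 1.5-fold lower, and all 7 probe sets of CYLD lay below 0. The kinases at the centre of the pathway, IKBKB (7.59 and 7.80), CHUK (9.25 and 9.41), MAP3K7 (8.14 and 8.37) and their scaffold IKBKG (8.94 and 8.87), lay between -0.07 and 0.23. In this list 4 of 42 genes (9.52%) were over 1.5-fold lower, beside 4.21% of all genes. Over 1.5-fold higher were 0, near the 2.61% over all genes. Below 0 lay 28 of 42 genes (66.7%, against 50.3% of all genes), and the median was -0.12. LY96 was thus lower together with CD14, while TLR4 itself was dim and near level.

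IL1RAP, the co-receptor of IL1R1, read 5.77 on both arrays, with a second probe set at -0.64, and the decoy receptor IL1R2 read 4.69 and 4.44. IL18R1 (2.89 and 2.81) and IL18RAP (4.95 and 4.81), the chains of the receptor for IL18, were dim. For the LIF receptor the shared chain IL6ST read 10.77 and 10.72 and LIFR 8.96 and 8.55, a difference of -0.41. CXCR2, the main receptor of the ELR chemokines, was dim (2.79 and 2.64), CXCR1 read 6.39 and 6.26, and CCR6, the receptor for CCL20, 3.25 and 3.35. Over 23 measured receptors of the secreted products, 15 lay below 0 (65.2%, against 50.3% of all genes) and the median was -0.12. Over 1.5-fold different were 0 in either direction, near the 4.21% lower and 2.61% higher over all genes. CCR10, a receptor for CCL28, had the lowest difference (-0.46).

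Of 38 measured chemokines and cytokines outside the chosen genes, 14 lay below 0 (36.8%, against 50.3% of all genes) and 21 above, and the median was 0.07, or -0.01 with the mean of each gene's probe sets. Over 2-fold different were 0, where 1.23% of all genes were lower and 0.465% higher, and over 1.5-fold lower were 2 of 38 (5.26%, beside 4.21%). These were IL7 (3.22 in control and 2.55 in ALDH high) and TSLP (3.31 and 2.67), both dim. The counts use main probe sets, and leave out a bright second one of TNFSF15 that was 3.81-fold lower. Among the 10 at or above the median level, the median was 0.15 and the highest were KITLG, the stem cell factor gene, at 0.56 and CXCL14 at 0.54.

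CD14, TLR2, IL1B and TNF are also expressed by leukocytes, and most of the measured markers of such cells were dim on both arrays. Of 12 measured leukocyte markers of 14, 4 reached the median level, and the levels ranged from 3.34 to 6.04 in control and from 3.56 to 6.12 in ALDH high, with a median difference of -0.02. PTPRC, the pan-leukocyte marker CD45, read 3.34 and 3.56. LYZ, which epithelial cells can also express, was 2.52-fold lower at a dim level (5.67 and 4.34). Medians were -0.11 over 12 markers of fibroblasts and stellate cells and -0.01 over 10 of endothelium, and 3 and 2 of these markers reached the median level of the arrays. FAP (-0.43) and ACTA2 (-0.42), and ESAM and ROBO4 (each 0.37), differed most. All 10 epithelial markers were bright, with a median of -0.10, KRT19 at 0.60 and ESRP1 at -0.57. Among the neuroendocrine markers, with a median of -0.08, 7 of 11 lay below 0 (63.6%, against 50.3% of all genes). ISL1 was 2.36-fold higher, DDC 1.60-fold higher and SNAP25 1.51-fold lower on the main one of 3 probe sets, all below 0. Fewer cells of a type and less RNA per cell cannot be told apart in these samples, and the part of either in the differences was not tested.

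Of the 45 genes, 25 had several probe sets, and in 10 of these all probe sets pointed the same way. CXCL8, ICAM1, IL6R, TLR4 and NFKBIZ were lower on each of their probe sets, and CCL28, IL1A, IL11, RELA and TRAF1 higher on each. The differences lay close together for CXCL8, at -0.98 and -0.77, and for ICAM1, from -0.55 to -0.25. The other probe sets of CXCL2, both dim, gave -0.32 and 0.18, and the other one of IL1R1, also dim, gave 0.14. A further 20 genes, CCL20, LIF, IL18, CD14, CXCL1, CXCL3 and MYD88 among them, rested on a single probe set.

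**Figure D4:**
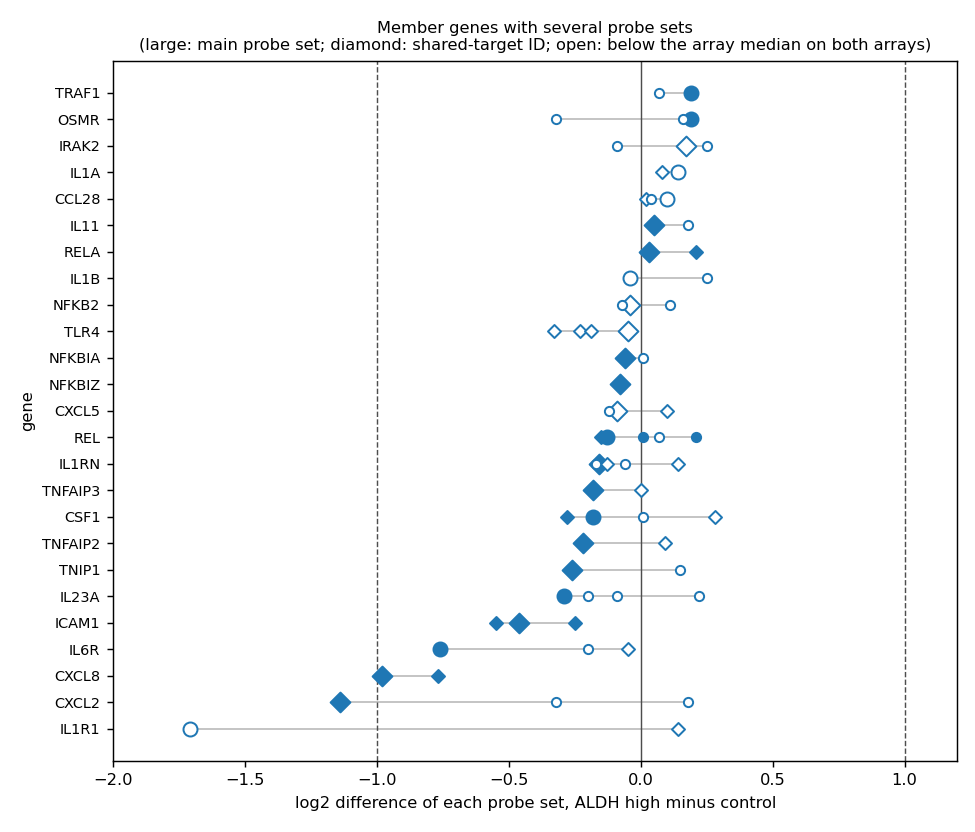
Difference in log2 level, ALDH high minus control (horizontal axis), of each probe set of the 25 genes with several (rows). Large symbols are the main probe sets, diamonds the shared-target types, open symbols those below the array median on both arrays, and dashed lines 2-fold. CXCL8 (-0.98 and -0.77) lies apart from 0 with both probe sets, IL1R1 (-1.71 and 0.14) with 1 of 2.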

How the data were processed

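QGP1 RNA was measured on Affymetrix arrays that use biotin-labelled amplified RNA primed from the 3′ end, 1 array for ALDH-high and 1 for control cells. Per the submitters' processing notes, the authors used RMA, and the deposited values are log2 levels. This method corrects background, quantile-normalises arrays together and summarises probes, so the values are relative to the other array. Its version and the set of arrays normalised with each other were not stated, and detection calls were not used here. The number of arrays limits the precision.

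Genes were named from the platform annotation, with symbols updated through the Entrez ID in RefSeq (GRCh38.p14), using only probe sets with 1 symbol. The log2 difference, ALDH high minus control, was computed per gene, with thresholds of 2-fold, which the series description uses, and 1.5-fold. The genes and lists were chosen with earlier results of these data known. Each member is named, and from each further list the members over 2-fold, up to 4, and in any case the 2 furthest from 0. Other genes of those lists, such as IL1RAP, RNF31 and SNAP25, were named after their values were seen. The counting of fold calls, not the differences themselves, was tested on simulated data. Loess used statsmodels 0.14.6 with a span of 0.3, and promoter windows were aligned with Biopython 1.88.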

Additional observations from a re-analysis of the deposited data

How the results depend on the processing

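Each value was recomputed under 7 alternatives, and the counts also at other folds. The counts at 1.5-fold were recomputed only for genes at or above the median level. The 3 genes over 2-fold lower became 1 with the mean of a gene's probe sets, 1 with their median, 1 with a pseudocount of 32, 1 with genes at or above the median level only, 10 at 1.5-fold and 1 at 3-fold. The 1 gene over 2-fold higher became 0 with the pseudocount and 0 among genes at or above the median level. In that last setting, which keeps 29 genes, 21 lay below 0. CXCL2 turned from -1.14 to 0.18 without shared-target probe sets, where a dim probe set is left. The median of all 45 genes, -0.17, ran from -0.18 among genes at or above the median level to -0.07 with the mean of probe sets. The median of the secreted genes ran from -0.34 to -0.06 and that of the components from -0.11 to -0.05. The gap between both ran from -0.26 among genes at or above the median level to 0.02 with the pseudocount. Loess centring and median centring moved none of the 45 genes by more than 0.23. No paired analysis was possible because each group had 1 array, and leaving out an array leaves no difference. Without detection calls, a dim level and absence cannot be told apart.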

Other observations

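TNFSF15, a cytokine of the tumour necrosis factor family and named here after its values were seen, had probe sets that differed in opposite directions at bright levels. The main one read 11.45 in control and 11.74 in ALDH high, a difference of 0.29, and the other 9.59 and 7.66, 3.81-fold lower. MAP3K8, a kinase of the pathway, also had a second probe set further from 0 than its main one (5.16 in control and 4.01 in ALDH high, 2.23-fold lower, against -0.33), at dim levels. For KITLG, 3 of 4 probe sets were higher in the ALDH-high cells, at 0.56, 0.76 and 0.73, and the dimmest was at -0.25.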
